A study of Sus scrofa with 6 samples.

Results

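Sterol and lipid transport genes were examined through 11 differentially methylated regions (DMRs) of backfat from lean and obese pigs. The members were every DMR that the deposited table annotates, through the human homologue of a pig transcript, to AKR1D1, NSDHL, MBTPS2, OSBPL1A, APOL2, ABCA5, ABCB4 or ATP11B. These 11 were drawn from 14163 DMRs in all and from 4864 DMRs in gene elements. The libraries came from 3 female Landrace pigs (LBF, the leaner breed) and 3 female Rongchang pigs (RBF, the fatty breed of China), 1 library per animal. The pigs shared their housing and were killed at 210 days of age. The tissue was backfat in both groups, a mixture of fat cells and the other cells of the depot, and the labels name no treatment. The assay was MeDIP-seq, in which an antibody to methylated cytosine enriches methylated fragments before sequencing. A higher read depth at CpGs is taken to stand for more methylation. The samples hold no library made without the antibody, and other sources of a depth difference between the breeds were not tested. Values are the normalized read depth of a library, the mean over the CpGs of a DMR. The table holds no expression values, so the tissue label could not be checked against marker genes.

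Cholesterol is made in the endoplasmic reticulum, carried between membranes by sterol-binding proteins, exported with phospholipids by ABC transporters, and turned into bile acids in the liver, while flippases keep phospholipids unevenly spread over both faces of a membrane. Its synthesis is set by the SREBP transcription factors, which are released from membranes by proteases when sterol runs low. Adipose tissue stores much of the body's cholesterol in the membranes and lipid droplets of its fat cells.

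Of the 11 DMRs, 8 had the higher depth in LBF and 3 the lower. The largest difference was that of the promoter of AKR1D1, with 31.0 times the depth in LBF. In the other direction, the largest were a promoter of APOL2 (9.70 times higher in RBF) and a DMR annotated to promoters of MBTPS2 and YY2 (8.73 times higher in RBF). The smallest was a DMR annotated to promoters of NSDHL and CETN2, with 1.97 times the depth in LBF. The test was limma on log2(depth + 1), adjusted by Benjamini-Hochberg across the full table of 14163 DMRs. The log2 FC (fold change) is LBF over RBF on that scale, given with its standard error (SE). All 11 had an adjusted p under 0.05, 8 of them higher in LBF (84.5% of all DMRs) and 3 lower (15.1%), and their breeds did not overlap. The same call was made for 99.5% of all DMRs, and the breeds did not overlap in 100%, because the table lists only regions already called on these pigs. The share higher in LBF was 72.7% among the 11 and 84.8% among all DMRs, and the median log2 FC was 1.68 and 1.64.

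Depth over the listed DMRs differed between the breeds as a whole. Library medians were 34.1 to 35.4 in LBF and 9.40 to 14.4 in RBF. As a check, the 6 libraries were given equal medians over the listed DMRs (median equalization), which moved the median log2 FC of all DMRs by -1.41, to 0.24. Under this median equalization the members split into 6 higher and 5 lower in LBF, and 1 higher (AKR1D1) and all 3 lower DMRs passed limma, where 10.9% of all DMRs were called higher and 17% lower. Since the table holds only called regions, its median is no neutral reference. The part of library depth in the results was not tested beyond it.

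**Figure D1:**
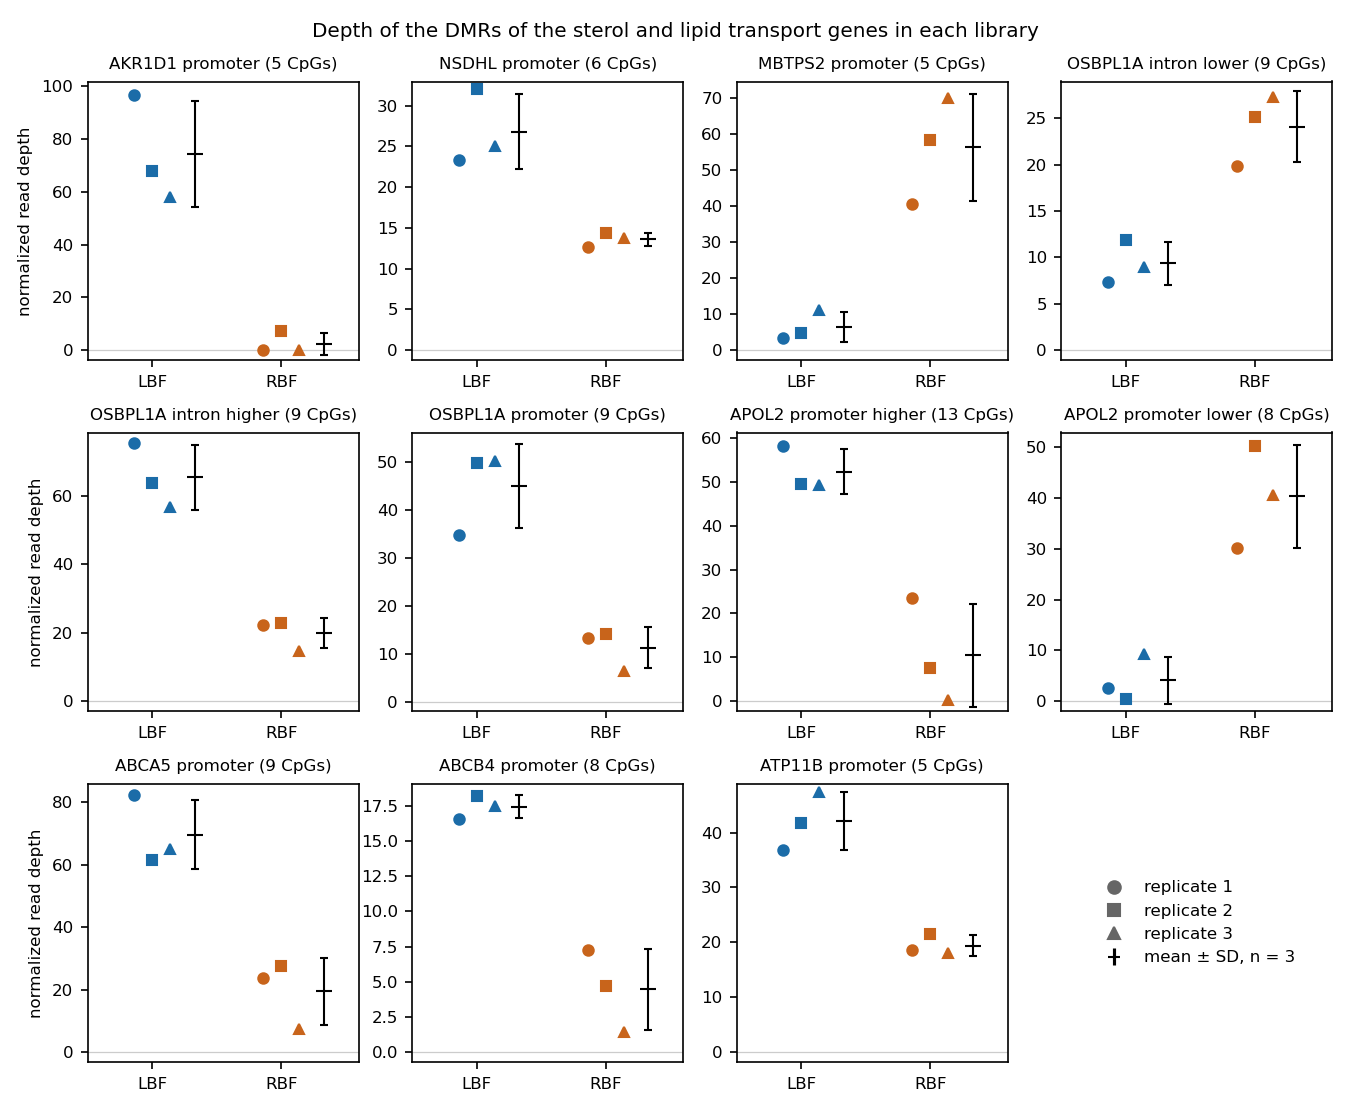
Normalized read depth (y axis, linear, own range in each panel) of the 11 DMRs in the 3 LBF and 3 RBF libraries. Symbols mark replicates, the black bar gives the mean ± SD (n = 3 pigs), and the breeds do not overlap in any panel, with AKR1D1 at 58.1 to 96.8 in LBF and 0 to 7.19 in RBF.

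AKR1D1 is the steroid reductase that saturates the ring of bile acid precursors and of steroid hormones. Its DMR lies on chromosome 18, 12068973 to 12069026 (Sscrofa10.2), and spans 54 bp with 5 CpGs, in the distal part of a promoter of intermediate CpG content (ICP). The depth was 96.8, 67.8 and 58.1 in LBF replicates 1 to 3 and 0, 7.19 and 0 in RBF replicates 1 to 3. Every LBF library lay at least 51.0 above the highest RBF library, and 2 of the 3 RBF libraries were listed at 0. The means were 74.3 ± 20.1 and 2.40 ± 4.15 (SD, n = 3 pigs each), a log2 FC of 5.19 (SE 0.83, adjusted p = 0.0022 from limma). The whole RBF signal came from replicate 2. The log2 FC was 6.20 without it, and 4.68 without RBF replicate 1 or without RBF replicate 3. Depth times the 5 CpGs, divided by the library's smallest step of this product, gives overlaps of a read with a CpG. There were 23 in RBF replicate 2, against 245 to 412 in the LBF libraries. With RBF libraries at 0 the log2 FC depends on the pseudocount, and it was 5.88 with 0.5 and 3.53 with 5. With each of these pseudocounts this DMR ranked 1 among the 336 promoter DMRs higher in LBF by its log2 FC. Its distance from the median of all DMRs was 3.55 on the log2 scale, and after median equalization its log2 FC was 4.43 (adjusted p = 0.014).

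NSDHL encodes a sterol dehydrogenase of cholesterol synthesis. Its DMR (X chromosome, 141377100 to 141377159, 60 bp, 6 CpGs) lies in a proximal promoter of high CpG content (HCP) and in the first intron, and it is also annotated to promoters of CETN2, which encodes centrin of the centrosome. LBF depths were 23.3, 32.0 and 25.1, and RBF depths 12.7, 14.3 and 13.8. The RBF libraries lay close together, and the lowest LBF library stood 8.98 above the highest of them. The log2 FC was 0.92 (SE 0.20, adjusted p = 0.0051), but it was below the median of all DMRs by 0.73 and turned to -0.51 after median equalization (adjusted p = 0.20). The mark at this shared promoter cannot be assigned to either gene.

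MBTPS2 is the membrane protease that releases SREBP factors. Its DMR (X chromosome, 19251641 to 19251789, 149 bp, 5 CpGs) was annotated to an ICP promoter and the first intron of one transcript, to an internal intron of another, and to a promoter and first intron of YY2, a zinc finger factor. The mark at this shared region cannot be assigned to either gene. LBF depths were 3.29, 4.90 and 11.2, and RBF depths 40.5, 58.4 and 70.0. All RBF libraries were thus at least 29.4 above the highest LBF library. The means of 6.45 ± 4.15 and 56.3 ± 14.8 (SD, n = 3 pigs each) gave a log2 FC of -3.05 (SE 0.43, adjusted p = 0.0018), and of -4.43 after median equalization. Among the 66 promoter DMRs lower in LBF it ranked 3, and 6 or 1 with a pseudocount of 0.5 or 5, while a promoter of APOL2 was at rank 2 with each. Both X-linked members can be set beside the 1297 DMRs of the X chromosome, of which 90.2% were higher in LBF and 9.64% were called lower.

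OSBPL1A belongs to the oxysterol-binding proteins, which carry sterols and sense them at contacts between late endosomes and the endoplasmic reticulum. It was the member with the most DMRs, 3 in all, and they did not share a direction. The promoter DMR (chromosome 6, 101814573 to 101814737, 9 CpGs, distal, ICP) had LBF depths of 34.9, 49.8 and 50.2 and RBF depths of 13.4, 14.1 and 6.45, with a log2 FC of 1.95 (SE 0.34, adjusted p = 0.0026). An internal intron DMR 78.8 kb away (101735593 to 101735789, 9 CpGs) also had the higher depth in LBF, at 75.5, 63.7 and 56.8 against 22.2, 22.7 and 14.8, and a log2 FC of 1.68 (SE 0.25, adjusted p = 0.0019). LBF was well clear of RBF at both, and RBF replicate 3 was the lowest library at each. A further intron DMR only 11.2 kb from the last (101724262 to 101724441, 9 CpGs) went the other way. Its LBF depths were 7.31, 11.9 and 8.96, and its RBF depths 19.8, 25.2 and 27.2 (log2 FC -1.28, SE 0.25, adjusted p = 0.0034). All 3 DMRs held the same number of CpGs, and their CpG densities were 4.57 to 5.45 per 100 bp. After median equalization the lower intron DMR stood at -2.69 and passed limma, whereas the promoter (0.54, adjusted p = 0.17) and the higher intron DMR (0.23, adjusted p = 0.45) did not.

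APOL2 is an apolipoprotein L, a family of lipid-binding proteins known in human to arise from a cluster of close gene copies. The table gives this human symbol to different pig transcripts with a promoter DMR each, 28.9 kb apart on chromosome 5, and the pair went in opposite directions. The DMR at 9273425 to 9273680 (13 CpGs) had LBF depths of 58.3, 49.5 and 49.2 and RBF depths of 23.4, 7.57 and 0.30. The LBF libraries were close to each other, whereas the RBF libraries spread from near 0 to 23.4. The means were 52.3 ± 5.17 and 10.4 ± 11.8 (SD, n = 3 pigs each), and the log2 FC was 3.04 (SE 0.99, adjusted p = 0.021). This was the largest SE among the 11. The adjusted p was 0.060, 0.052 and 0.053 without LBF replicate 1, 2 or 3, so the call ended in each case, and the log2 FC was 1.88 without RBF replicate 3 and 3.99 without RBF replicate 1. After median equalization it was 1.88 (adjusted p = 0.21).

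The other APOL2 DMR, at 9302540 to 9302793 (8 CpGs), had LBF depths of 2.64, 0.48 and 9.34 and RBF depths of 30.1, 50.2 and 40.7. Here LBF was low throughout, and the lowest RBF library was 20.7 above the highest LBF library. The log2 FC was -3.40 (SE 0.68, adjusted p = 0.0037), -2.72 without LBF replicate 2, -4.12 without LBF replicate 3 and -4.67 after median equalization. Both DMRs are distal, lie in ICP promoters and are of nearly the same length, 256 and 254 bp. Between them lay an intergenic DMR, 13.4 kb from the first and 15.3 kb from the second, that was higher in LBF (log2 FC 3.18, and 2.02 after median equalization). Of the 8 other DMRs within 300 kb of the lower APOL2 DMR, 7 were higher in LBF (5 after median equalization), near the 84.8% of all DMRs that were higher (59.8% after median equalization). Close gene copies may share reads, and which copy a read came from was not tested.

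ABCA5 and ABCB4 are ATP-driven transporters. ABCA5 acts in lysosomes and late endosomes, and ABCB4 moves phosphatidylcholine across the bile canaliculus membrane of liver cells. The ABCA5 promoter DMR (chromosome 12, 11489890 to 11490055, 9 CpGs, distal, ICP) had LBF depths of 82.2, 61.5 and 65.1 and RBF depths of 23.7, 27.4 and 7.31, a log2 FC of 1.96 (SE 0.48, adjusted p = 0.0072). The ABCB4 promoter DMR (chromosome 9, 102651021 to 102651099, 8 CpGs) had 16.6, 18.2 and 17.5 in LBF and 7.24, 4.69 and 1.45 in RBF, a log2 FC of 1.92 (SE 0.44, adjusted p = 0.0057). LBF replicates of ABCB4 were the most alike of all members, with an SD of 4.64% of the mean, while RBF replicate 3 was the lowest library at both transporters. The ABCB4 DMR was the only member on the shore of a CpG island and had the lowest mean depth of the 11, at 10.9. Both calls ended after median equalization (log2 FCs 0.52 and 0.66, adjusted p = 0.32 and 0.24).

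ATP11B is a phospholipid flippase of endosomes, which moves phospholipids to the cytoplasmic face of a membrane. The DMR lies in the distal part of the ICP promoters of 3 ATP11B transcripts (chromosome 2, 56335397 to 56335561, 165 bp, 5 CpGs). LBF depths were 36.9, 41.8 and 47.5, and RBF depths 18.6, 21.6 and 18.1. The RBF libraries lay between 18.1 and 21.6, and the gap between the breeds was 15.3. The log2 FC was 1.07 (SE 0.20, adjusted p = 0.0030), but it was 0.57 below the median of all DMRs and turned to -0.37 after median equalization (adjusted p = 0.27). In the RefSeq annotation of the later assembly, Sscrofa11.1, ATP11B stands on another chromosome than this DMR, unlike 6 of the 7 members matched there, which kept their chromosome. The named coding genes on either side of ATP11B there are SOX2 and DCUN1D1, whereas in the table the nearest gene with a DMR on the lower side was OR2AJ1, an olfactory receptor. Whether this DMR belongs to ATP11B was not tested beyond this, and its values are those of a region that the table names so.

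**Figure D2:**
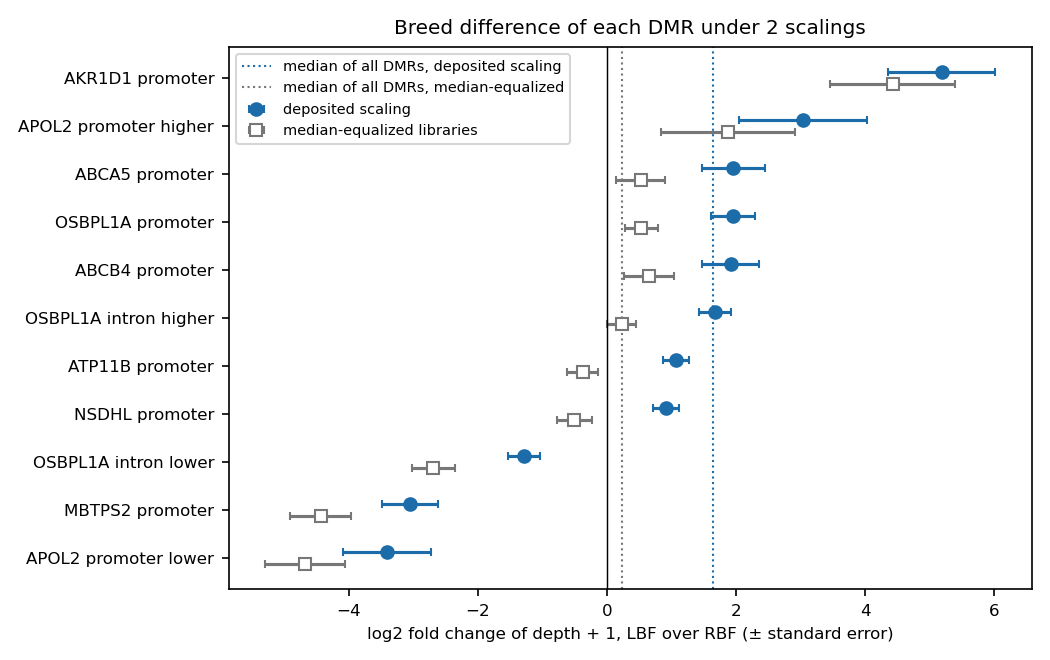
Log2 FC of depth + 1, LBF over RBF, with its SE (x axis), for the 11 DMRs under the deposited scaling (filled circles) and after median equalization (open squares). Dotted lines mark the median of all DMRs under each scaling, and NSDHL and ATP11B turn from higher to lower in LBF (0.92 to -0.51 and 1.07 to -0.37). All other members keep their direction, but only AKR1D1 and the 3 lower DMRs pass limma after median equalization.

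Set among DMRs of their own direction, the members spread over most of the range. By the size of the log2 FC AKR1D1 stood at percentile 99.9 of the DMRs higher in LBF, the higher APOL2 DMR at 89.3, and ABCA5, OSBPL1A and ABCB4 promoters at 55.1 to 56.8. NSDHL and ATP11B were at percentiles 7.76 and 13.0. Of the DMRs lower in LBF, the lower APOL2 DMR was at percentile 97.2, MBTPS2 at 94.9 and the lower OSBPL1A intron at 38.4. No measure of chance was attached to these positions, since the genes were chosen with results of these data known.

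**Figure D3:**
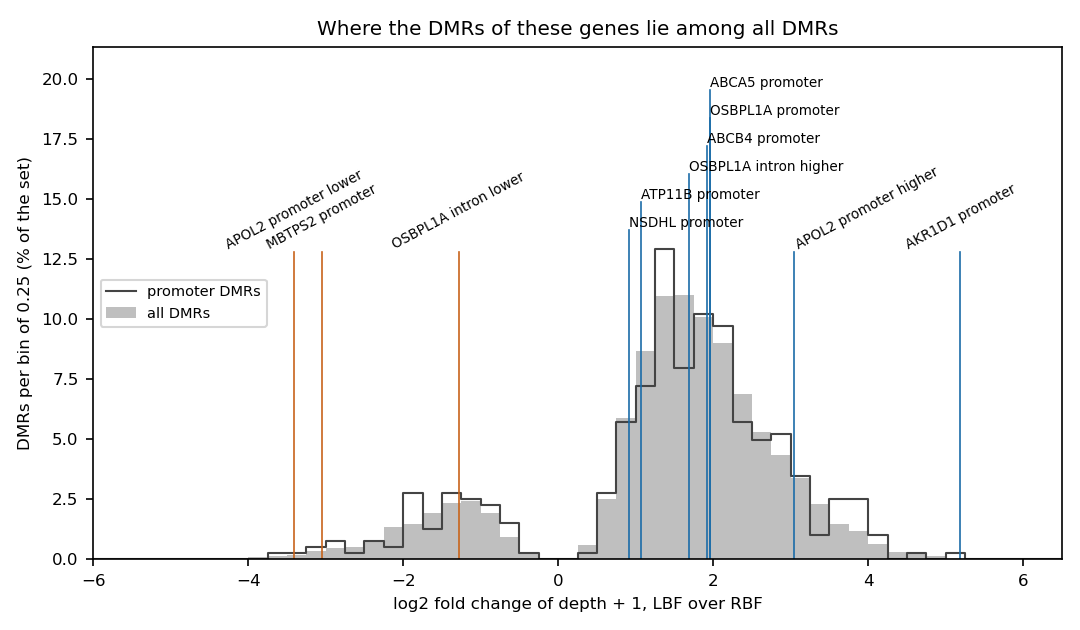
Distribution of the log2 FC of depth + 1, LBF over RBF (x axis), as the percent of DMRs per bin, for all 14163 DMRs (gray) and the 402 promoter DMRs (black line), under the deposited scaling. Vertical lines mark the 11 members, blue where the depth was higher in LBF and orange where it was lower, with AKR1D1 at 5.19 and the lower APOL2 DMR at -3.40, while NSDHL and ATP11B turn to lower in LBF after median equalization.

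The genes were chosen with results of these data known, so the features of their DMRs may not be independent of that choice. In length, CpG content, position and depth, the members were set beside all DMRs. Their median length was 165 bp against 148 bp for all DMRs, with a median of 8 against 7 CpGs and 5.08 against 5.23 CpGs per 100 bp. The densest were ABCB4, NSDHL and AKR1D1, with 9.26 to 10.1 CpGs per 100 bp, all above percentile 91 of all DMRs. The sparsest were ATP11B, the lower APOL2 DMR and MBTPS2, with 3.03 to 3.36. None lay in a CpG island, and 9.09% of the members (1 DMR) lay on a shore, against 4.0% of all DMRs and 11.9% of promoter DMRs. The promoter share is the closer comparison, since 81.8% of the members lay in promoters, against 2.84% of all DMRs. Of the 9 promoter DMRs, NSDHL and ABCB4 were in HCPs and the other 7 in ICPs. The median depth was 42.0 in LBF and 19.4 in RBF among the members, against 35.1 and 12.8 over all DMRs. The spread between pigs, as the median SD in percent of the mean, was 17.2% in LBF and 26.3% in RBF among the members, and 12.3% and 34.3% over all DMRs. RBF replicate 3 was the lowest RBF library in 6 of the 8 members higher in LBF, against 59.4% of all such DMRs.

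**Figure D4:**
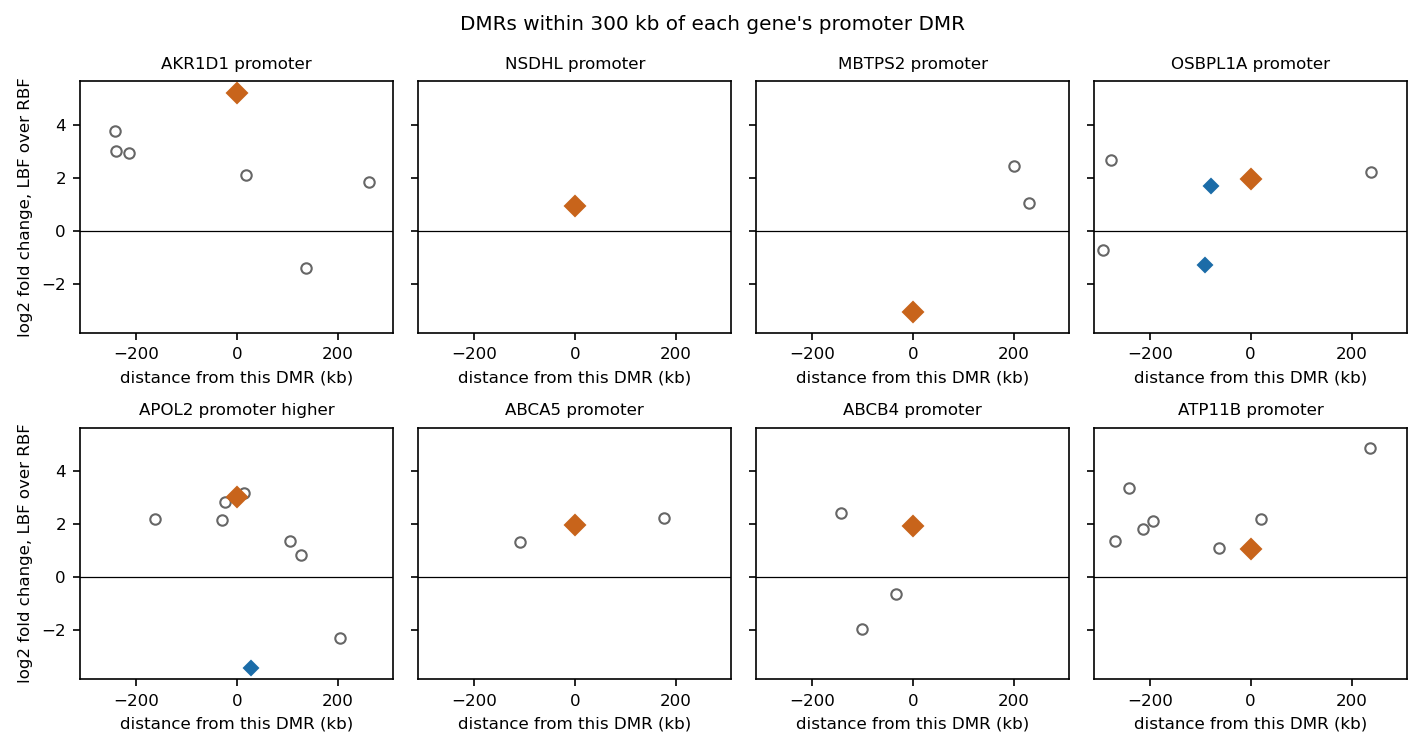
Log2 FC of depth + 1 (y axis, LBF over RBF, deposited scaling) of every DMR within 300 kb of a member, by its distance in kb (x axis). Orange diamonds are the named DMRs, blue diamonds other DMRs of the same gene symbol and open circles the rest, so that ABCB4 (1.92) stands beside ABCB1 introns at -0.62 and -1.95, and MBTPS2 (-3.05) beside a PHEX intron at 2.45, while the DMRs of NSDHL and ATP11B turn to lower in LBF after median equalization.

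Around the members, the nearest other DMRs were 17 in number, with 14 higher and 3 lower in LBF (10 and 7 after median equalization). The share higher over all DMRs was 84.8%, and 59.8% after median equalization. The ABCB4 promoter lay 32.2 kb from an intron DMR of ABCB1, its neighbor in the genome and a drug efflux pump, which had a mean depth of 30.6 ± 1.82 for LBF and 47.4 ± 3.30 for RBF (SD, n = 3 pigs each), with a log2 FC of -0.62 (adjusted p = 0.014). A further ABCB1 intron DMR was also lower in LBF (-1.95, adjusted p = 0.0025), and both kept that direction after median equalization (-2.08 and -3.31). On the other side, 487 kb away, an intron of KIAA1324L was lower in LBF (-1.85). The nearest DMR to AKR1D1 was intergenic, 17.6 kb away, and higher in LBF (2.12, and 0.66 after median equalization). Next along the chromosome, CREB3L2, a transcription factor released from the endoplasmic reticulum membrane, held a promoter DMR lower in LBF (-1.40) and an intron DMR higher (1.85), and both kept their direction after median equalization (-2.69 and 0.59). Both DMRs within 300 kb of MBTPS2 were higher in LBF (1 of 2 after median equalization), the nearest an intron of PHEX, a phosphate-regulating endopeptidase, at 200.7 kb (2.45, and 1.14 after median equalization). NSDHL stood alone, with 0 other DMRs within 300 kb, and its nearest neighbors, 930 and 771 kb away, were intergenic and of opposite directions (0.79 and -1.01). After median equalization the former turned to -0.67. ATP11B had 7 DMRs within 300 kb, all higher in LBF under the deposited scaling (5 of 7 after median equalization), and the nearest on the lower side turned from 1.09 to -0.29.

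The profile most like each promoter DMR was sought among DMRs in gene elements of other genes, by Euclidean distance of log2(depth + 1) over the 6 libraries. For ATP11B it was an intron DMR of ARHGEF11 (distance 0.22), for NSDHL an intron of SNX15 (0.23), for OSBPL1A an intron of CC2D2A (0.24) and for ABCA5 an exon of ZFYVE1 (0.30). ABCB4 was nearest to an intron of ARAP1 (0.39) and the higher APOL2 DMR to an intron of KIAA2012 (0.57). The profiles of MBTPS2, the lower APOL2 DMR and AKR1D1 had less close matches, in introns of EIF2B3 (1.03), MYH10 (1.08) and USP24 (1.56). The USP24 intron shared the RBF pattern of AKR1D1, with a depth of 0, 15.5 and 0 in RBF and 57.8, 45.4 and 34.2 in LBF.

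Other genes of sterol and lipid transport were taken from 7 lists with 188 genes, of which 180 were no members. Of these 180, 33 had a DMR in a gene element, with 47 DMRs higher and 12 lower in LBF. All 59 passed limma, as did 99.5% of all DMRs. Their median log2 FC was 1.57 against 1.64 over all DMRs, and after median equalization 33 were higher and 26 lower. Of all DMRs, 84.8% were higher in LBF (59.8% after median equalization), which are the shares to set beside each list. Of the 33 genes, 2 had a promoter DMR.

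Among 22 genes of cholesterol synthesis, 4 had a DMR, with 5 DMRs higher and 2 lower in LBF (3 and 4 after median equalization). Besides MBTPS2, ERLIN2, an endoplasmic reticulum protein that helps to restrain SREBP, was the only 1 of 14 genes of SREBP processing with a DMR. Its promoter was higher in LBF, with a log2 FC of 1.82 (adjusted p = 0.012), which did not pass after median equalization (0.43, adjusted p = 0.45). Of 21 genes of bile acid synthesis and steroid reduction, AKR1D1 was joined only by CYP7A1, the rate-limiting enzyme of bile acid synthesis, with intron DMRs at 2.22 and 1.09, which stood at 0.80 (adjusted p = 0.064) and -0.32 after median equalization.

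Intracellular sterol transfer was the list with most DMRs, 17 higher and 4 lower in LBF in 12 of 30 genes (13 and 8 after median equalization). NPC2 and NPC1, which hand cholesterol out of the lysosome, were its extremes and went in opposite directions. An NPC2 intron had a mean depth of 54.9 ± 3.35 for LBF and 7.96 ± 10.22 for RBF (SD, n = 3 pigs each), with a log2 FC of 3.30 (SE 0.78), and an NPC1 intron had 6.29 ± 2.61 and 24.9 ± 5.19 (-1.88, SE 0.35). After median equalization NPC2 no longer passed (2.02, adjusted p = 0.084), whereas NPC1 did (-3.25, adjusted p = 7.7e-04). OSBPL3, a relative of OSBPL1A, held 6 intron DMRs, all higher in LBF (1.26 to 2.77). After median equalization 5 stayed higher, the lowest turned to -0.19, and 3 passed limma. OSBPL3 was picked out after its values had been seen.

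Among apolipoproteins, lipoprotein receptors and plasma lipid transfer proteins, 5 of 39 genes had a DMR, with 7 higher and 1 lower in LBF (4 and 4 after median equalization). Both APOL2 DMRs were the extremes of this list. APOC4, an apolipoprotein of triglyceride-rich particles, had a promoter DMR at 22.6 ± 2.95 in LBF and 8.47 ± 2.48 in RBF (log2 FC 1.34), which became -0.05 after median equalization. This DMR is also annotated to PVRL2, and the mark cannot be assigned to either gene. ABC transporters had 14 DMRs higher and 2 lower in 8 of 30 genes (11 and 5 after median equalization), and both lower ones were those of ABCB1. The largest was an intron of ABCG2, an exporter of urate and drugs, with 16.7 ± 4.62 in LBF and 0.59 ± 0.85 in RBF (log2 FC 3.57, and 2.78 after median equalization). Flippases and scramblases had 8 DMRs higher and 5 lower in 8 of 33 genes (5 and 8 after median equalization). Introns of ANO4 (3.38) and ATP8A2 (-2.09) were the extremes, of which ATP8A2 passed after median equalization (-3.47, adjusted p = 6.9e-04) and ANO4 did not (2.09, adjusted p = 0.083). ATP9A, a flippase relative picked out after its values had been seen, held 3 intron DMRs in each direction (-1.22 to 1.89). After median equalization 2 were higher and 4 lower, and only the 3 lower under the deposited scaling passed limma.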

How the data were processed

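MeDIP-seq libraries of 6 pigs (3 LBF, 3 RBF) were grouped by their labels. The authors removed reads of poor quality, mapped the others with SOAP2 (build Sscrofa10.2, as named in the submitters' processing notes), treated multiply mapped reads as duplicates, filtered CpGs with few reads, and merged adjacent CpGs that varied with breed to give DMRs. The deposited signal is coverage, averaged across the CpGs in each DMR and scaled per library in a way that the sources used here do not state for this table. For chromosome-wide profiles the study describes depth relative to the average read number of a group, and whether the table was scaled so is not stated. Further columns hold the authors' p-value and FDR per DMR, which were neither printed nor compared, the FDR serving only as a stricter filter. Other numbers that the authors deposited are the length and number of CpGs of each DMR.

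All 14163 DMRs were fitted with limma 3.58.1 (R 4.3.3) on log2(depth + 1) without covariates beside breed (Benjamini-Hochberg, threshold 0.05). The fit was also run on simulated data in which most regions were equal between the breeds. Nearly all regions of the real table are called, so that run says nothing on these calls. An exact permutation test of 3 against 3 pigs was not used, since it cannot go below a two-sided p of 0.10. Depth multiplied by CpG number came in steps of fixed size within a library (1.17 to 1.56; 100% of the values above 0, within 0.01 of a step), which gives the overlaps of reads with CpGs. A read can overlap several CpGs. The named genes were all DMRs of the 8 members, the genes sharing them, the nearest DMR on each side and the most similar DMR. Of the 7 lists, they were promoter DMRs, a gene sharing one, and the extreme DMR of either direction. One gene that this rule names is not reported here. Members and lists were chosen with earlier results of these data known. RefSeq names of Sscrofa11.1 (7 of 8 members matched by symbol) were used for neighbors and for a comparison of chromosomes only. Alternatives were pseudocounts of 0.5 and 5, median equalization, untransformed depth, a block for the replicate number, omission of each library, and restriction to autosomes, to a mean depth of 10 or more, to 10 or more CpGs, or to a deposited FDR under 0.005. No sequence was read, since no genome was used here.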

Additional observations from a re-analysis of the deposited data

How the results depend on the processing

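Of 145 values of member DMRs under the alternatives, 135 kept their direction and side of the threshold, 8 kept the direction but no longer passed, and 2 reversed, both after median equalization (NSDHL promoter -0.51, ATP11B promoter -0.37). Counts past limma among the 11 members, 8 higher and 3 lower in LBF, became 1 and 3 after median equalization. With an FDR under 0.005 only 3 member DMRs were left to test, giving 3 higher and 0 lower, and with at least 10 CpGs only 1 was left, giving 1 and 0, so that 0 lower DMRs passed limma at an unadjusted p under 0.05 as well, none having been left to test. Over all 70 DMRs of the lists, 55 were called higher and 15 lower in LBF. Under the same 3 settings the counts of higher DMRs were 10, 29 and 14, and those of lower DMRs 17, 6 and 1. In the main fit 84.5% of all DMRs were called higher and 15.1% lower, and after median equalization 10.9% and 17%. For the other settings no share over all DMRs is given here. Leaving out each library gave 7 to 8 higher and 3 lower members, and 53 to 55 higher and 14 to 15 lower list DMRs. Each lost member call was that of the higher APOL2 DMR.

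With the replicate number as a block, 8 members were higher and 3 lower, and 54 and 14 list DMRs. Deviations of same-numbered libraries from their breed means correlated at 0.06, -0.01 and 0.06, and not every library correlated best with its own number. Such correlations cannot tell whether the pigs were paired in housing, slaughter or processing. Legends of the paper name a paired t-test for some comparisons of 3 pigs per breed, without saying how pigs were paired. Values near 0 rest on few overlaps of a read with a CpG in either breed. There were 3 behind the higher APOL2 DMR in RBF replicate 3, and 3 behind the lower APOL2 DMR in LBF replicate 2. The step of depth multiplied by CpG number was 1.29 in each of these libraries.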
